A study of Homo sapiens with 18 samples.

Results

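A set of 9 genes of catecholamine handling were followed across xenograft tumours of 3 human neuroblastoma lines. They are TH, DDC, DBH and PNMT, which encode the enzymes of synthesis, SLC18A1 and SLC18A2, which load vesicles, SLC6A2, which takes noradrenaline back up, CYB561, which feeds electrons to vesicles, and MAOA, which breaks monoamines down. They were chosen by name, and these 9 were found among the 63677 gene identifiers of the deposited tables. All 9 reached 1 TPM (transcript abundance scaled to length and to a fixed total) in at least 3 of the 18 libraries and were tested, with MAOA, CYB561, DBH and DDC at 1 TPM or more in 18 libraries, TH and SLC6A2 in 15, SLC18A1 in 12, SLC18A2 in 8 and PNMT in 7.

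Catecholamines are made from tyrosine in sympathetic neurons and adrenal chromaffin cells. TH, tyrosine hydroxylase, is the rate-limiting enzyme and makes L-DOPA. DDC, aromatic L-amino acid decarboxylase, makes dopamine from it, DBH makes noradrenaline inside the vesicle, and PNMT makes adrenaline, mainly in chromaffin cells. Neuroblastoma arises from the same sympathoadrenal lineage, and the breakdown products of catecholamines in urine serve in its diagnosis.

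The tumours were bulk xenografts, collected after the mice were sacrificed, of the lines SKNAS, LAN-1 and KELLY. For every line there were 3 control tumour libraries and 3 libraries labelled Hmx1, after a homeobox gene, which makes 6 groups. Treatment is given as None for all 18 libraries. A genotype, MYCN-amp, is given for only 2 KELLY control libraries, numbers 2 and 3, so it does not tell groups apart. The labels give no time, no age or strain of the mice and no site of the graft, and the direction in which Hmx1 was altered is not stated. Nor is it stated that each library was a different animal, and the p-values therefore measure no more than how these libraries vary, and that variation may be technical.

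HMX1 itself was listed at 0 TPM in the 3 SKNAS control libraries and lay between 0.193 and 1.24 TPM in the SKNAS Hmx1 libraries. Its mean was 11.6 ± 0.413 TPM in LAN-1 control and 13.2 ± 2.89 TPM in LAN-1 Hmx1 (SD, n = 3). In KELLY it was 5.70 ± 1.91 TPM in control and 5.50 ± 0.861 TPM in Hmx1 (SD, n = 3). The HMX1 level therefore set the arms apart without overlap in SKNAS only, and the sources used here do not say whether an introduced sequence would be counted there. TPM keeps no depth, and between 14420 and 16441 genes reached 1 TPM per library. All 10 neuroblastoma markers, CHGA and HAND2 among them, reached 1 TPM in all 6 groups, and of 8 adrenal cortex markers at most 1 did in any group. The mitochondrial share of TPM ran from 4.47% to 33.8% among libraries, with the widest spread among KELLY controls. Fewer cells of a type and less RNA per cell cannot be told apart in such bulk tumours.

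Values below are TPM, which is scaled for transcript length, so that levels of different genes can be set side by side. Changes are differences of log2(TPM + 1) with their standard error (SE), which understate the change of low genes. The threshold for a call was an adjusted p of 0.05, from limma with Benjamini-Hochberg adjustment over 18650 genes.

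The first enzyme of the pathway, TH (GRCh37 chromosome 11, 2185159 to 2193107), spanned the widest range of the enzymes. The KELLY control libraries held 640.1, 628 and 363 TPM of TH and the KELLY Hmx1 libraries 779.7, 574 and 529.8 TPM. The LAN-1 control libraries held 89.1, 93.3 and 57.4 TPM and the LAN-1 Hmx1 libraries 46.7, 40.4 and 54.6 TPM. The SKNAS control libraries held 3.06, 2.55 and 3.03 TPM and the SKNAS Hmx1 libraries 0, 0.137 and 0.184 TPM. The 2 arms overlapped in KELLY, while in LAN-1 and in SKNAS every Hmx1 library lay below every control library of its line. The order of the 6 group means was KELLY Hmx1, KELLY control, LAN-1 control, LAN-1 Hmx1, SKNAS control and SKNAS Hmx1, and only the 2 KELLY groups overlapped as neighbours.

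In SKNAS the fall of TH passed the test, at -1.81 (SE 0.23, limma adjusted p = 2.9e-05), and the mean went from 2.88 ± 0.286 to 0.107 ± 0.0958 TPM (SD, n = 3). The call held in 12 of 12 alternatives, with the difference between -3.98 (a pseudocount of 0.1 in place of 1) and -1.11 (FPKM). The per-gene coverage in the deposited tables was 2.03 to 3.03 in the controls and 0 to 0.233 in the Hmx1 libraries, so the SKNAS Hmx1 values stand on very few fragments. In LAN-1 the difference was -0.73 (SE 0.23, limma adjusted p = 0.297) and in KELLY 0.23 (SE 0.23, limma adjusted p = 0.968), and neither passed. The SKNAS and KELLY responses differed, by -2.04 (SE 0.32, limma adjusted p = 0.000696). The SKNAS and LAN-1 responses differed by -1.08, which did not pass (SE 0.32, limma adjusted p = 0.068). This difference ranged from -3.24 with a pseudocount of 0.1 to -0.43 with FPKM over 18 alternatives. It passed in 3 of them, the pseudocount of 0.1 (limma adjusted p = 0.0004), mitochondrial transcripts left out (-1.26, adjusted p = 0.0263) and only those groups fitted (adjusted p = 0.0301), and in the others adjusted p reached 0.529.

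DDC (GRCh37 chromosome 7, 50526134 to 50633154) was present in all libraries. The SKNAS control libraries held 18.9, 26.4 and 18.9 TPM of DDC and the SKNAS Hmx1 libraries 32.5, 55.0 and 37.5 TPM. The LAN-1 control libraries held 76.5, 83.9 and 59.9 TPM and the LAN-1 Hmx1 libraries 36.5, 45.8 and 46.2 TPM. The KELLY control libraries held 403, 918 and 502 TPM and the KELLY Hmx1 libraries 730.1, 749.7 and 1017 TPM. The Hmx1 libraries were thus higher than the controls without overlap in SKNAS, lower without overlap in LAN-1, and mixed with them in KELLY. LAN-1 Hmx1 and SKNAS Hmx1 overlapped as neighbours in the order of means, at 42.8 and 41.7 TPM.

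The SKNAS rise of DDC was 0.91 (SE 0.26, limma adjusted p = 0.0388). It missed the threshold when all low genes were kept, when only the SKNAS libraries were fitted, and without SKNAS control library 1 or 3 or Hmx1 library 2 or 3, with adjusted p between 0.0163 and 0.206 over 12 alternatives. The LAN-1 difference of -0.76 (SE 0.26, limma adjusted p = 0.398) and the KELLY difference of 0.53 (SE 0.26, limma adjusted p = 0.769) did not pass. The responses of SKNAS and LAN-1 differed from each other by 1.67 (SE 0.37, limma adjusted p = 0.0114), which held in 18 of 18 alternatives.

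DBH (GRCh37 chromosome 9, 136501482 to 136524466), the copper enzyme that makes noradrenaline, had the highest TPM of the 9 genes in 17 libraries. DDC was above it in KELLY Hmx1 library 3. The SKNAS control libraries held 133, 98.7 and 146 TPM of DBH and the SKNAS Hmx1 libraries 81.3, 65.7 and 91.6 TPM. The LAN-1 control libraries held 535, 529 and 572 TPM and the LAN-1 Hmx1 libraries 399, 380.3 and 412 TPM. The KELLY control libraries held 729, 1355 and 811 TPM and the KELLY Hmx1 libraries 1185, 1049 and 1013 TPM. Hmx1 libraries were below their controls without overlap in SKNAS and LAN-1, and the KELLY arms overlapped.

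The DBH differences were -0.65 in SKNAS (SE 0.20, limma adjusted p = 0.053), -0.46 in LAN-1 (SE 0.20, limma adjusted p = 0.635) and 0.22 in KELLY (SE 0.20, limma adjusted p = 0.954), none past the threshold. The SKNAS difference passed in 4 of 12 alternatives, with deposited FPKM (adjusted p = 0.0131), with median-ratio scaling (adjusted p = 0.0107), with mitochondrial transcripts left out (adjusted p = 0.00757) and without SKNAS control library 2 (adjusted p = 0.0262). DBH lies opposite DBH-AS1, whose highest TPM was 4.3. Whether the counting used strand is not stated, so reads of the pair cannot be told apart. The same holds for DDC and DDC-AS1 (highest 0.0741 TPM) and for SLC18A2 and SLC18A2-AS1 (highest 0.693 TPM).

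PNMT (GRCh37 chromosome 17, 37824234 to 37826728) stayed at 2.14 TPM or lower in all libraries. It ranged from 0.372 to 2.14 TPM in SKNAS control, 0.604 to 1.74 TPM in SKNAS Hmx1, 0.275 to 1.14 TPM in LAN-1 control, 0 to 0.553 TPM in LAN-1 Hmx1, 1.05 to 1.68 TPM in KELLY control and 0.837 to 1.44 TPM in KELLY Hmx1. All 6 groups overlapped with their neighbours in the order of means, unlike the other 3 enzymes. The 95% interval of the Hmx1 difference was -0.59 to 0.60 in SKNAS, -0.99 to 0.20 in LAN-1 and -0.77 to 0.42 in KELLY.

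**Figure D1:**
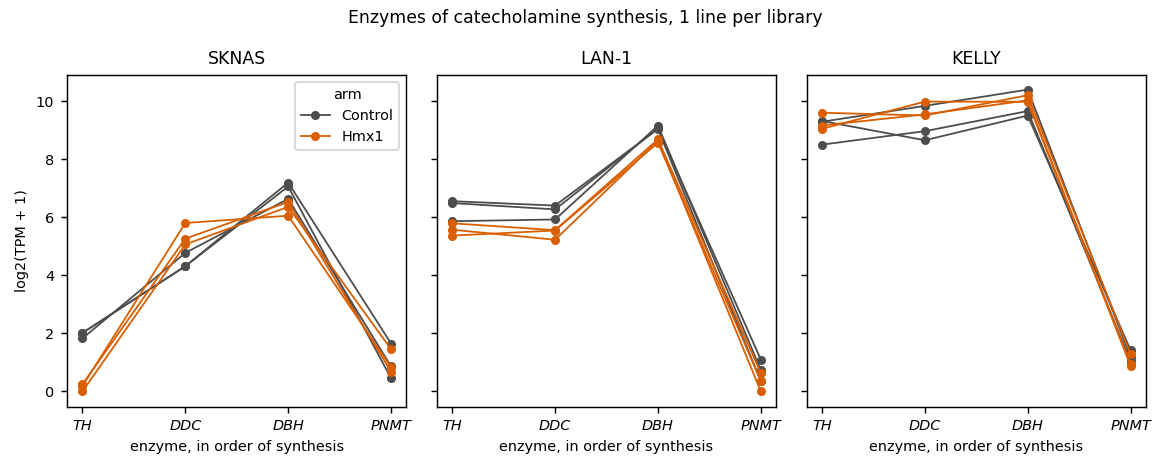
log2(TPM + 1) of the 4 enzymes of catecholamine synthesis, in the order in which they act, with 1 line per library (grey for control, orange for Hmx1) and 1 panel per xenograft line. TH starts near 0 in SKNAS Hmx1 and above 8 in KELLY, DBH is the peak in 17 of 18 libraries, and PNMT is low in all 3 panels.

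The transcript level of DBH was set against that of TH as the log2 ratio of DBH to TH in each library, each with 1 TPM added. In SKNAS it was 5.05, 4.81 and 5.19 in the control libraries and 6.36, 5.87 and 6.29 in the Hmx1 libraries, without overlap. In LAN-1 it was 2.57, 2.49 and 3.29 in control and 3.07, 3.20 and 2.89 in Hmx1. In KELLY it was 0.19, 1.11 and 1.16 in control and 0.60, 0.87 and 0.93 in Hmx1. DBH was thus most in excess of TH in SKNAS and least in KELLY, in both arms. The Hmx1 difference was 1.16 in SKNAS (two-sided exact permutation p = 0.1, the smallest that 3 against 3 can give), 0.27 in LAN-1 (exact p = 0.4) and -0.02 in KELLY (exact p = 1). With libraries relabelled within lines the mean difference was 0.47 (exact permutation p = 0.0345 over 8000 relabellings, 0.414 after Benjamini-Hochberg adjustment over 12 ratio tests), so it did not pass. The SKNAS ratio difference was 3.32 with a pseudocount of 0.1 and 0.47 with FPKM.

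The vesicular monoamine transporters carry dopamine and noradrenaline into vesicles. SLC18A1 (GRCh37 chromosome 8, 20002366 to 20040717), the chromaffin-type transporter, was at 47.0, 62.9 and 44.3 TPM in KELLY control and at 68.0, 56.4 and 62.3 TPM in KELLY Hmx1. It was at 13.5, 11.5 and 11.4 TPM in LAN-1 control and at 11.6, 9.10 and 11.3 TPM in LAN-1 Hmx1. In SKNAS it was at 0.0451, 0.234 and 0.223 TPM in control and at 0, 0 and 0.0506 TPM in Hmx1. The arms overlapped in all 3 lines, and the 3 lines did not overlap with each other. The Hmx1 differences were -0.20 in SKNAS, -0.18 in LAN-1 and 0.28 in KELLY, with limma adjusted p of 0.647, 0.998 and 0.848. With a pseudocount of 0.1 the SKNAS difference was -1.12 and passed (limma adjusted p = 0.0245).

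SLC18A2 (GRCh37 chromosome 10, 119000604 to 119038941), the neuronal transporter, was at 21.5, 58.0 and 28.4 TPM in KELLY control and at 52.4, 43.7 and 38.8 TPM in KELLY Hmx1. In LAN-1 it was at 1.41, 1.17 and 0.723 TPM in control and at 0.550, 0.492 and 0.557 TPM in Hmx1. In SKNAS no library was above 0.126 TPM. The LAN-1 Hmx1 libraries were the lower ones without overlap, but the difference of -0.44 did not pass (SE 0.26, limma adjusted p = 0.841). SLC18A1 exceeded SLC18A2 in all 12 libraries of LAN-1 and KELLY, and by more in LAN-1 without overlap, with log2 ratios of 2.66 ± 0.172 in control and 2.92 ± 0.141 in Hmx1 against 0.61 ± 0.488 and 0.47 ± 0.177 in KELLY (SD, n = 3). In SKNAS both genes were near 0 and the ratio says little.

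SLC6A2 (GRCh37 chromosome 16, 55689516 to 55740104), the noradrenaline transporter through which labelled MIBG enters neuroblastoma cells, was at 22.1, 39.7 and 26.5 TPM in KELLY control and at 22.6, 31.7 and 23.2 TPM in KELLY Hmx1. It was at 21.1, 29.6 and 16.02 TPM in LAN-1 control and at 34.2, 20.6 and 15.4 TPM in LAN-1 Hmx1. In SKNAS it was at 0.875, 1.48 and 1.19 TPM in control and at 0.981, 2.19 and 0.839 TPM in Hmx1. KELLY and LAN-1 overlapped throughout, and SKNAS lay below both. The Hmx1 differences were 0.06 in SKNAS (95% interval -0.57 to 0.70), 0.04 in LAN-1 (-0.60 to 0.67) and -0.16 in KELLY (-0.80 to 0.48), so changes within these bounds are not excluded.

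CYB561 (GRCh37 chromosome 17, 61509665 to 61523739), the cytochrome that passes electrons across the vesicle membrane to keep ascorbate available to DBH, did not follow the order of the enzymes. The LAN-1 control libraries held 21.8, 21.0 and 20.01 TPM of CYB561 and the LAN-1 Hmx1 libraries 6.78, 7.43 and 5.92 TPM. The SKNAS control libraries held 66.3, 63.7 and 52.0 TPM and the SKNAS Hmx1 libraries 65.8, 49.3 and 65.3 TPM. The KELLY control libraries held 285, 554 and 425 TPM and the KELLY Hmx1 libraries 474, 427 and 332 TPM. The LAN-1 arms were far apart, with little spread in either, while the arms of SKNAS and of KELLY overlapped.

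CYB561 fell in LAN-1 by 1.51 on the log2 scale (SE 0.21, limma adjusted p = 0.00118), from a mean of 20.9 ± 0.896 to 6.71 ± 0.755 TPM (SD, n = 3). The call held in 12 of 12 alternatives, with adjusted p between 4.6e-05 and 0.031. In SKNAS the difference was -0.02 (95% interval -0.46 to 0.42) and in KELLY 0.00 (-0.44 to 0.44). The LAN-1 response differed from the SKNAS response (SKNAS minus LAN-1, 1.49, SE 0.29, limma adjusted p = 0.00419). It also differed from the KELLY response by -1.51 (SE 0.29, limma adjusted p = 0.0469), but this call was lost in 11 of 18 alternatives, with adjusted p between 0.00433 and 0.188. Among those 11 were the fits without any 1 of the 6 LAN-1 libraries, without KELLY control library 3 and without KELLY Hmx1 library 1 or 2.

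The sequences before 4 member genes are shown because their levels differed between lines or arms: 2 of the starts of CYB561, the later start of DDC, and the starts of SLC18A2 and DBH. They are the 250 bases before the start, on the strand of the gene, from RefSeq with the GRCh38.p14 build, which is not the build of the deposited coordinates. RefSeq promoters were matched for 5 of the 9 genes, with 9 starts in all. Capitals mark the letters of the motifs searched on both strands.
CYB561, chr17:63446307-63446556, minus strand: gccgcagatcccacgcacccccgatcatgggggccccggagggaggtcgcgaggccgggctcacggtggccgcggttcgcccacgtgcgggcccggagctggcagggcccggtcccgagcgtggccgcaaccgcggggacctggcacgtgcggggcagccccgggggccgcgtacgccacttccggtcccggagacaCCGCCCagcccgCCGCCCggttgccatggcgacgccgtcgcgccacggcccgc
CYB561, chr17:63440828-63441077, minus strand: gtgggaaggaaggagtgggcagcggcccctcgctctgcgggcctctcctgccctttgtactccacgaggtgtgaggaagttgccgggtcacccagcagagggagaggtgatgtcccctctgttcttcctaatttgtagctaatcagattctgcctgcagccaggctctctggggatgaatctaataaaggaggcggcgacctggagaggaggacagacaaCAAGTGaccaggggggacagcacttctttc
DDC, chr7:50561072-50561321, minus strand: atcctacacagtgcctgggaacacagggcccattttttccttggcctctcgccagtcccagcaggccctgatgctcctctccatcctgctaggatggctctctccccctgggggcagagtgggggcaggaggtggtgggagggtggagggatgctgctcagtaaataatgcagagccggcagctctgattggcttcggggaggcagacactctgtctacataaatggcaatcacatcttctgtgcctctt
SLC18A2, chr10:117240864-117241113, plus strand: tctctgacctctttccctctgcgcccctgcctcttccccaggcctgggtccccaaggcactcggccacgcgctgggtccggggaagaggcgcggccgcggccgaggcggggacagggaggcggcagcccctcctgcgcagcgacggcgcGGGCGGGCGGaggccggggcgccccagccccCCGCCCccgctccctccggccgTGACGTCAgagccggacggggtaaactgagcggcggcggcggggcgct
DBH, chr9:133636113-133636362, plus strand: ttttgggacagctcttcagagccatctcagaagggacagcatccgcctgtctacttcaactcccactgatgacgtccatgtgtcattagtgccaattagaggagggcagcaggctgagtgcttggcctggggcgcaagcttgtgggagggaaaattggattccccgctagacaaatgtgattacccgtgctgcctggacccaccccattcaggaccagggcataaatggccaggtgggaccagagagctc

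Of the 8 motifs searched, TGACGTCA is the cyclic AMP response element, and the AP-1 site was read as TGANTCA. HMX proteins are known to bind the core letters CAAGTG, and TAATTA is the core of many other homeodomain sites. The letters AGATAA stood for the site of GATA factors and GGGCGG for the GC box. The TATA box was read as TATAAA and the E-box as CAGCTG. In CYB561, CAAGTG stood 30 to 25 bases before the start at 63440828 to 63441077, letters that 9.5% of the 35116 RefSeq promoter windows hold on 1 strand or the other. No other of the 9 member starts held CAAGTG, the remaining starts of CYB561 included. The start at 63446307 to 63446556 held 2 GC boxes instead. SLC18A2 held TGACGTCA 48 to 41 bases before its start, which 1.65% of all windows hold, and 3 GC boxes, 2 of which overlap. MAOA, not printed, held 4 GC boxes and 1 CAGCTG, and 42.6% of all windows hold a GC box. Neither the DBH window nor either DDC window held any of the 8 motifs. A match of letters is a description only, and no binding was measured.

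MAOA (GRCh37 chromosome X, 43515467 to 43606068), the mitochondrial enzyme that oxidises noradrenaline, dopamine and serotonin, was at 70.0, 268 and 128 TPM in KELLY control and at 119.7, 93.1 and 89.5 TPM in KELLY Hmx1. It was at 70.8, 60.9 and 59.2 TPM in LAN-1 control and at 59.3, 69.4 and 44.4 TPM in LAN-1 Hmx1. In SKNAS it was at 20.8, 14.6 and 17.2 TPM in control and at 22.1, 30.8 and 22.7 TPM in Hmx1. The SKNAS Hmx1 libraries were higher without overlap, and the arms of LAN-1 and KELLY overlapped. The SKNAS difference of 0.50 did not pass (SE 0.33, limma adjusted p = 0.493), nor did those of LAN-1 (-0.16, adjusted p = 1) and KELLY (-0.42, adjusted p = 0.931). MAOB, the related enzyme, was listed at 0 in LAN-1 and stayed under 1 TPM in all groups.

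**Figure D2:**
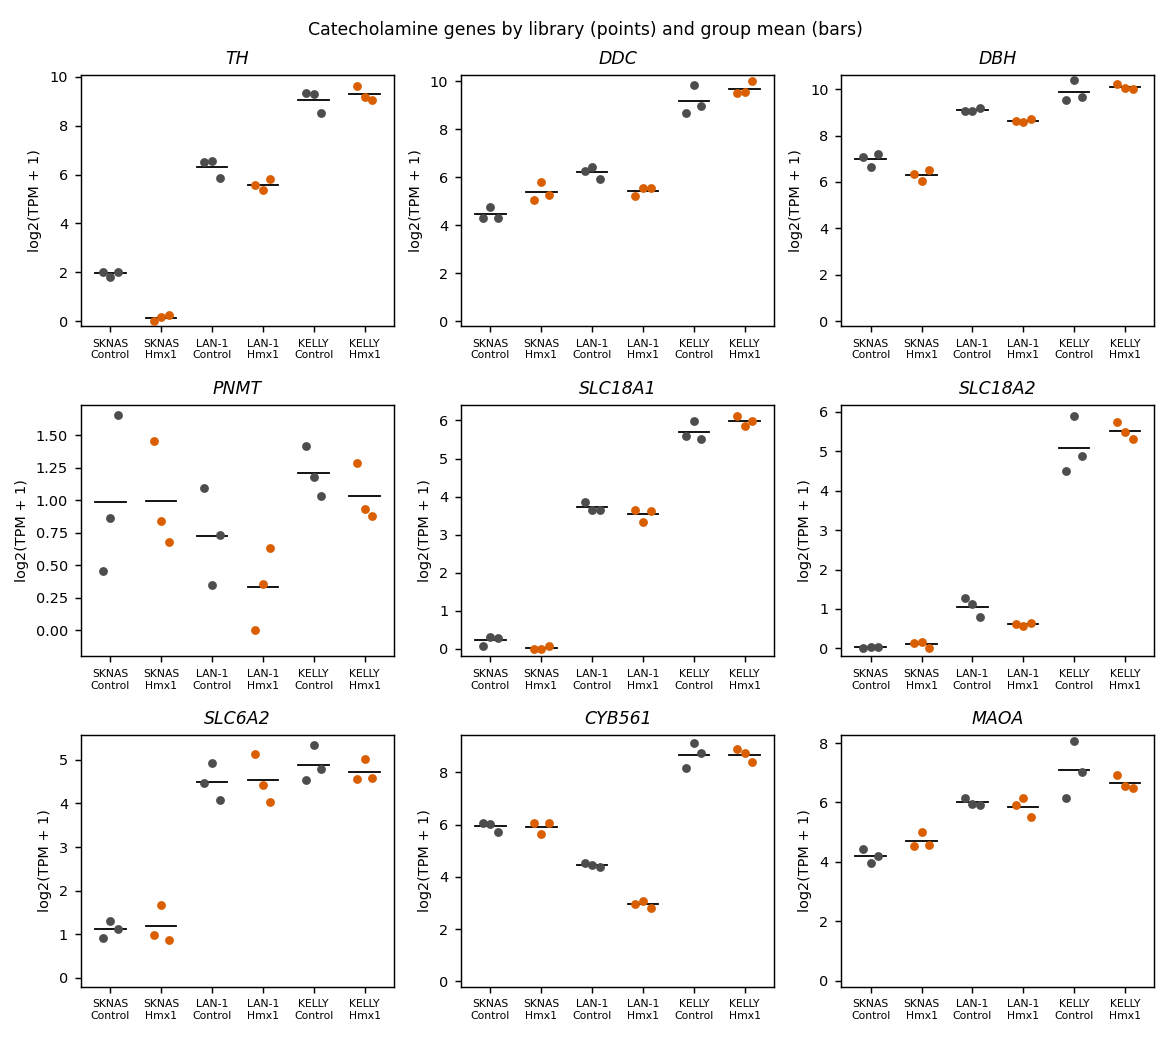
log2(TPM + 1) of the 9 genes, with 1 point per library (grey for control, orange for Hmx1) and a bar at the mean of the 3 libraries of each group; the vertical scale differs between panels. TH, DDC and SLC18A1 lie at separate levels in the 3 control groups, CYB561 drops in LAN-1 Hmx1, and the KELLY control points spread widely for MAOA and SLC18A2.

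Set side by side, Hmx1 against control gave 1 rise (DDC) and 1 fall (TH) among the 9 genes in SKNAS, 1 fall (CYB561) in LAN-1 and none in KELLY. The share of all tested genes called was 8.76% in SKNAS, 0.45% in LAN-1 and 0.0912% in KELLY. In KELLY the limma test also found no member at an unadjusted p under 0.05, the lowest being 0.0626 for DDC. Arms that did not overlap were seen for 4 of 9 genes in SKNAS (TH, DDC, DBH and MAOA), where 30.9% of all genes did so. They were seen for 5 of 9 in LAN-1 (TH, DDC, DBH, SLC18A2 and CYB561), all lower in Hmx1. Of all genes 15.8% had LAN-1 arms that did not overlap, counting both directions. In KELLY 0 of 9 did so, against 6.67% of all genes. The median difference over the 9 genes was 0.00 in SKNAS, -0.44 in LAN-1 and 0.22 in KELLY, beside medians over all genes of 0, -0.05 and 0.02.

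The differences between the lines' responses passed the test for 2 of 9 genes between SKNAS and LAN-1 (DDC and CYB561, where 4.99% of all genes were called). They passed for 1 of 9 between SKNAS and KELLY (TH, where 4.85% were called) and for 1 of 9 between LAN-1 and KELLY (CYB561, where 0.209% were called). These 3 differences share libraries with each other. For DBH the difference between the SKNAS and KELLY responses was -0.87 and did not pass (SE 0.28, limma adjusted p = 0.1). It passed in 3 of 18 alternatives, among them FPKM (-0.82, limma adjusted p = 0.036) and median-ratio scaling (-0.82, limma adjusted p = 0.0305). The other was the fit without KELLY control library 2 (-1.14, limma adjusted p = 0.00449). Over the 18, adjusted p reached 0.239. Between LAN-1 and KELLY the count was 3 of 9 without KELLY control library 2, with DDC at -1.63 (limma adjusted p = 0.0317) and SLC18A2 at -1.27 (limma adjusted p = 0.0341).

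**Figure D3:**
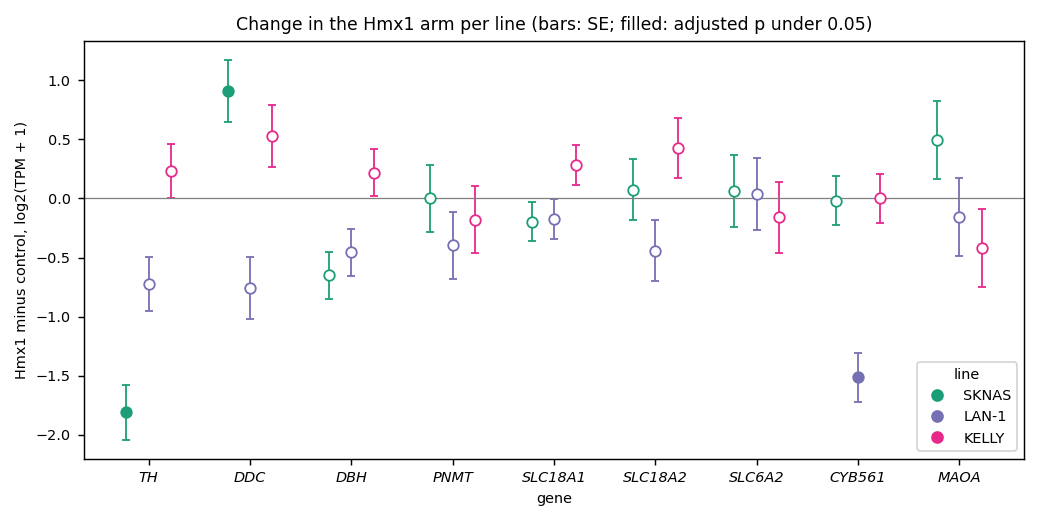
Hmx1 minus control on the log2(TPM + 1) scale for the 9 genes in each line (green SKNAS, purple LAN-1, pink KELLY), with bars of 1 SE; filled points passed the limma test and open points did not. The filled points are TH at -1.81 and DDC at 0.91 in SKNAS, and CYB561 at -1.51 in LAN-1.

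The 3 lines differed far more than the arms. Between control tumours of SKNAS and KELLY, 8 of 9 genes passed, all lower in SKNAS. Of all genes 65.7% were called, and 16.1% were called lower in SKNAS. On the log2(TPM + 1) scale the largest differences of the 8 genes were -7.09 for TH, -5.48 for SLC18A1, -5.05 for SLC18A2 and -4.69 for DDC. The 1 TPM added shrinks the differences of genes near 0. By the ratio of mean TPM, KELLY to SKNAS, SLC18A2 (1628) and SLC18A1 (307) were ahead of TH (189). Between SKNAS and LAN-1, 8 of 9 passed, against 52.0% of all genes. Of these, 7 were lower in SKNAS, where 20.5% of all genes were called lower, and CYB561 was higher by 1.49. The 7 ran from -4.35 for TH to -1.03 for SLC18A2 on that scale. By the ratio of mean TPM, LAN-1 to SKNAS, SLC18A1 (72.6) and SLC18A2 (49.8) were ahead of TH (27.8). Between LAN-1 and KELLY, 7 of 9 passed, all lower in LAN-1. Of all genes 51.8% were called, and 13.6% were called lower in LAN-1. The 7 ran from -4.22 for CYB561 to -0.77 for DBH on that scale. By the ratio of mean TPM, KELLY to LAN-1, SLC18A2 (32.7) was ahead of CYB561 (20.1). PNMT passed in none of the 3, and SLC6A2 did not differ beyond the spread between LAN-1 and KELLY at -0.39 (SE 0.30, limma adjusted p = 0.297). The 3 comparisons share their control libraries. The control tumours also differed in the summed level of 9 fibroblast markers. It was 1145 to 1346 TPM in SKNAS, 23.8 to 33.5 TPM in LAN-1 and 101 to 182 TPM in KELLY. All 9 were higher in SKNAS than in LAN-1. Against KELLY 6 were higher in SKNAS, 3 did not pass and none was lower. The part of such markers in the differences between lines was not tested.

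The median of all genes was 0.18 for SKNAS minus LAN-1, 0.54 for SKNAS minus KELLY and 0.34 for LAN-1 minus KELLY, so the genes as a whole were shifted the other way from most members. The median over the 9 genes was -1.81, -3.77 and -1.98. Median-ratio scaling brought the medians of all genes to 0.05, 0.03 and 0, and moved the share of calls that were higher from 75.4% to 51.3% for SKNAS minus KELLY and from 73.8% to 50% for LAN-1 minus KELLY. Under that scaling no member call changed direction, and PNMT (-0.75, limma adjusted p = 0.0383) and SLC6A2 (-0.85, limma adjusted p = 0.00906) also passed between LAN-1 and KELLY. Of the calls between LAN-1 and KELLY, 2 depended on the setting. MAOA, at -1.07 (limma adjusted p = 0.0117), was lost without KELLY control library 2 (-0.57, adjusted p = 0.0623) and when only those 2 groups were fitted (adjusted p = 0.123). DBH was lost in the latter fit (adjusted p = 0.0593).

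The sum of the 9 genes was 208 to 243 TPM in SKNAS control, 798 to 831 TPM in LAN-1 control and 2219 to 3884 TPM in KELLY control. In the Hmx1 arms it was 204 to 219 TPM, 574 to 595 TPM and 3025 to 3433 TPM. The LAN-1 arms did not overlap in this sum, and the SKNAS and KELLY arms did. DBH was above the other 8 genes together in all 6 LAN-1 libraries.

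The KELLY control libraries varied with the mitochondrial share of their TPM. Control library 2 had a mitochondrial share of 12.9% and the highest TPM of its group for DDC, DBH, SLC18A1, SLC18A2, SLC6A2, CYB561 and MAOA. Control libraries 1 and 3 had shares of 33.8% and 29.6%, and the Hmx1 libraries lay between these at 18.7%, 21.0% and 15.9%. TH did not follow this, being as high in control library 1 as in library 2. Without control library 2 the Hmx1 difference in KELLY was 0.87 for DDC, 0.83 for SLC18A2 and 0.08 for MAOA, and no member passed. The part of the mitochondrial share in these differences was not tested beyond leaving those transcripts out, under which no member passed in KELLY either.

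**Figure D4:**
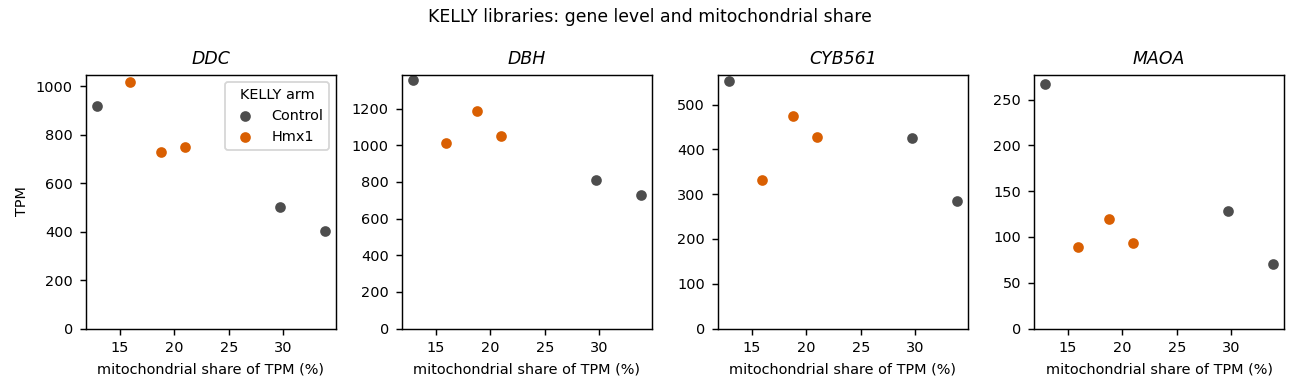
TPM of DDC, DBH, CYB561 and MAOA against the mitochondrial share of TPM, in percent, for the 6 KELLY libraries (grey control, orange Hmx1). The control library at 12.9% is the highest control in each panel, and the 2 controls at about 30% and above lie low for DDC and DBH.

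Some markers of host and other cells differed between the SKNAS arms, in both directions, where 8.76% of all genes were called. The 9 fibroblast markers all reached 1 TPM in both SKNAS arms, and their summed level was 1145 to 1346 TPM in control and 813 to 906 TPM in Hmx1. Of them 3 fell (PDGFRA, LUM and DPT), none rose and 6 did not pass, with a list median of -0.49 beside 0 for all genes. Of 7 leukocyte markers, PTPRC rose from 91.9 ± 14.2 to 231 ± 49.6 TPM (SD, n = 3, limma adjusted p = 3.3e-05). CD14 fell from 1.34 to 0.523 TPM, and AIF1 and ITGAM were listed at 0 in control and LYZ at 0 in Hmx1. The summed level of that list was 77.3 to 105 TPM in control and 190 to 287 TPM in Hmx1, of which PTPRC alone was 75.7 to 102 TPM and 187 to 285 TPM. PTPRC was listed at 0 in all LAN-1 and KELLY libraries. Of 7 endothelial markers TEK rose and ENG fell, PECAM1 was listed at 0 in both arms, and the sums overlapped at 6.71 to 9.08 and 7.14 to 10.3 TPM. Of 6 Schwann cell markers S100B rose, and SOX10 was listed at 0 in both arms. In LAN-1 and KELLY none of these markers passed. Of the 10 neuroblastoma markers 1 rose in SKNAS Hmx1 and 9 did not pass. It was CHGA, a protein of chromaffin and dense-core vesicles, which went from 825 ± 214 to 1508 ± 178 TPM (SD, n = 3, 0.89, limma adjusted p = 0.00603), a call that held in 11 of 12 alternatives and was lost with SKNAS fitted alone (adjusted p = 0.0539). The part of all these markers in the TH and DDC changes of SKNAS was not tested, and the sources used here do not say how reads of the host were handled. The calls of PTPRC, TEK and ENG held in 12 of 12 alternatives, while those of CD14, DPT, S100B and PDGFRA held in 5, 6, 7 and 8 of 12 and that of LUM in 11.

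TH needs tetrahydrobiopterin, which is made by GCH1, PTS and SPR and recycled by QDPR and PCBD1. Of 8 genes of this cofactor 1 fell in SKNAS Hmx1, none rose and 7 did not pass, where 8.76% of all genes were called. It was QDPR, which went from 56.7 ± 2.88 to 31.5 ± 2.78 TPM (SD, n = 3, limma adjusted p = 0.0365). The QDPR call held in 5 of 12 alternatives and was lost when any 1 of the 6 SKNAS libraries was left out (adjusted p up to 0.126). In LAN-1 and KELLY 0 of 8 passed. Across control tumours GCHFR, which encodes the feedback regulator of GCH1, was at 8.04 ± 1.81 TPM in SKNAS, 115.3 ± 9.35 TPM in LAN-1 and 6.20 ± 0.606 TPM in KELLY (SD, n = 3). Its LAN-1 level was above that of SKNAS (SKNAS minus LAN-1, -3.70, limma adjusted p = 8.3e-09) and of KELLY (LAN-1 minus KELLY, 4.01, limma adjusted p = 5.9e-09), an order unlike that of TH. PCBD2 was higher in LAN-1 than in KELLY, by 1.11. GCH1 itself was at 16.4 ± 5.11, 17.3 ± 1.12 and 15.8 ± 15.1 TPM in the 3 control groups and did not pass between them.

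DBH needs copper and ascorbate. Of 8 tested genes of these 1 fell in SKNAS Hmx1 and 7 did not pass, where 8.76% of all genes were called. It was PAM, the peptide-amidating enzyme that uses the same cofactors, from 212 ± 4.09 to 112.99 ± 11.3 TPM (SD, n = 3, limma adjusted p = 0.0027). None of the 8 passed in LAN-1 or KELLY. PAM was also higher in SKNAS control than in LAN-1 control (33.3 TPM) and KELLY control (38.1 TPM), by 2.65 and 2.47. ATP7A, the copper pump, was at 22.6 TPM in SKNAS, 17.3 TPM in LAN-1 and 4.72 TPM in KELLY control tumours, lower in KELLY than in both other lines (SKNAS minus KELLY 2.16, LAN-1 minus KELLY 1.77). CYB561A3, a relative of CYB561, was higher in SKNAS than in LAN-1 by 1.45 (limma adjusted p = 2.9e-05).

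Of the other breakdown genes, 8 of 10 were tested and 0 passed in any Hmx1 comparison. Of all genes 8.76% were called in SKNAS, 0.45% in LAN-1 and 0.0912% in KELLY. ALDH2, which oxidises the aldehydes that MAOA makes, was at 24.1 ± 2.57 TPM in SKNAS, 86.8 ± 5.53 TPM in LAN-1 and 33.5 ± 8.30 TPM in KELLY control (SD, n = 3), highest in LAN-1 against both other lines (limma adjusted p = 3e-08 against SKNAS and 1.7e-06 against KELLY). Of 8 tested genes for other monoamines, 1 rose, 2 fell and 5 did not pass in SKNAS Hmx1, beside those 8.76% of all genes. HDC, which makes histamine, rose from 0.134 ± 0.104 to 2.27 ± 0.285 TPM (SD, n = 3, limma adjusted p = 6.8e-07). SLC18B1, a vesicular polyamine transporter, and SLC18A3, the vesicular acetylcholine transporter, both fell, by 1.65 and 0.77 on the log2 scale. The calls of HDC and SLC18B1 held in 12 of 12 alternatives, and that of SLC18A3 in 8, being lost with median-ratio scaling and without control library 3 or Hmx1 library 1 or 3.

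Of 19 tested genes of vesicle acidification and release, 1 rose (VAMP2, 0.64) and 2 fell (SNAP25, -0.80, and CADPS2, -0.67) in SKNAS Hmx1. In that comparison 8.76% of all genes were called. None of the 19 passed in LAN-1 or KELLY. The SNAP25 call held in only 4 of 12 alternatives, being lost when any 1 of the 6 SKNAS libraries was left out. That of VAMP2 held in 11, being lost without Hmx1 library 3, and that of CADPS2 in 11, being lost with a pseudocount of 0.1. The genes differed between lines in both directions. CADPS, which primes dense-core vesicles, was at 1.42 TPM in SKNAS, 26.1 TPM in LAN-1 and 21.7 TPM in KELLY control. Its paralog CADPS2 was at 6.80 TPM in SKNAS, was listed at 0 in LAN-1 and was at 0.00612 TPM in KELLY.

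Of 6 tested adrenergic and dopamine receptors, 5 were lower in SKNAS control than in KELLY control and 1 (DRD4) was higher, where 65.7% of all genes were called. Against LAN-1 control 3 were lower in SKNAS (ADRA2A, ADRA2C and DRD2), 1 was higher (DRD4) and 2 did not pass, where 52.0% of all genes were called. DRD2, the dopamine autoreceptor, was at 1.73 ± 0.852 TPM in SKNAS, 4.66 ± 0.479 TPM in LAN-1 and 28.2 ± 8.67 TPM in KELLY control (SD, n = 3). ADRA2C, an autoreceptor for noradrenaline, was at 0.751, 21.6 and 11.9 TPM. In SKNAS Hmx1, where 8.76% of all genes were called, ADRA2C was the only 1 of the 6 receptors to pass. It rose to 1.89 ± 0.431 TPM (SD, n = 3, limma adjusted p = 0.0338). That call held in 5 of 12 alternatives and was lost with FPKM, with median-ratio scaling, with SKNAS fitted alone and without control library 1 or 2 or Hmx1 library 2 or 3.

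Among 16 tested transcription factors known to act on these genes, 2 fell in SKNAS Hmx1, where 8.76% of all genes were called. None of the 16 passed in LAN-1 or KELLY. TFAP2B, an AP-2 factor of sympathetic neurons, fell from 25.4 ± 2.01 to 4.56 ± 1.20 TPM (SD, n = 3), by 2.27 on the log2 scale (limma adjusted p = 2.3e-06). Its call held in 12 of 12 alternatives. Between control tumours GATA2, GATA3 and PHOX2A were all lower in SKNAS than in both other lines. GATA2 was at 6.26 ± 0.588 TPM in SKNAS, 206 ± 13.1 TPM in LAN-1 and 245 ± 54.2 TPM in KELLY, GATA3 at 5.85 ± 0.496, 110.5 ± 3.08 and 46.5 ± 24.3 TPM, and PHOX2A at 33.8 ± 4.25, 200.3 ± 9.73 and 186 ± 49.1 TPM (SD, n = 3).

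TFAP2B had an order of its own, at 25.4 TPM in SKNAS, 0.876 TPM in LAN-1 and 80.5 TPM in KELLY control. It was lower in LAN-1 than in KELLY (-5.37, limma adjusted p = 5.6e-12). INSM1 was at 102, 44.2 and 5.42 TPM and REST, a repressor of neuronal genes, at 11.9, 5.62 and 0.894 TPM in SKNAS, LAN-1 and KELLY control, so that both were lowest in the line with the highest TH.

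**Figure D5:**
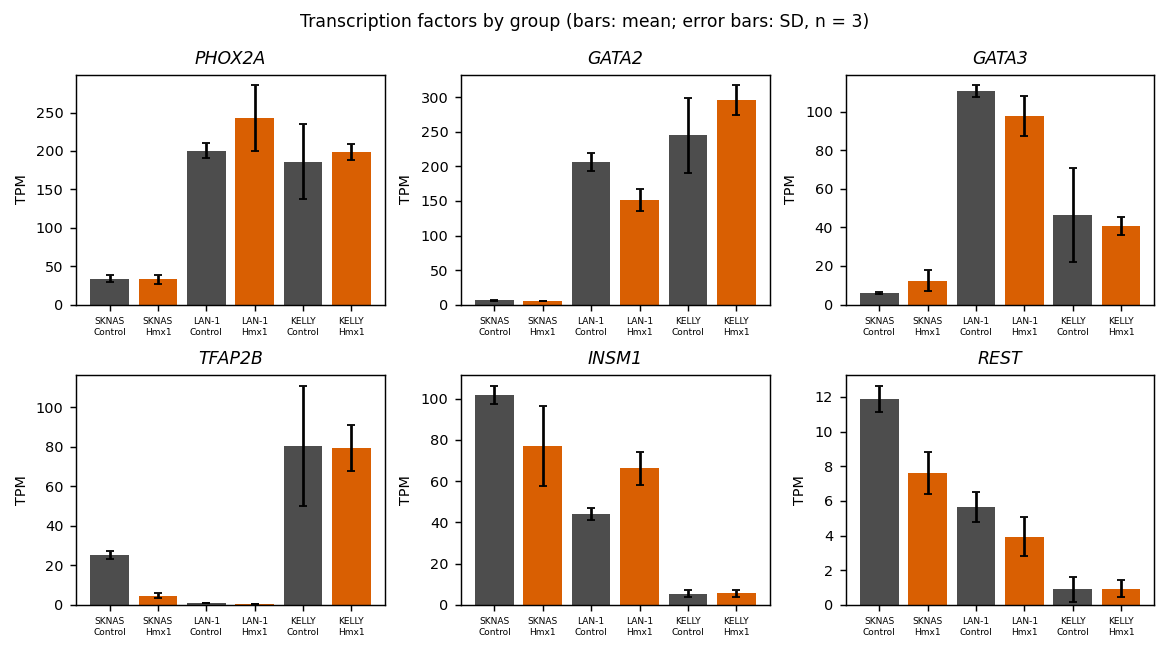
TPM of 6 transcription factors in the 6 groups, as bars from 0 with error bars of 1 SD over 3 libraries (grey control, orange Hmx1). GATA2, GATA3 and PHOX2A are low in both SKNAS groups, TFAP2B is nearly absent in LAN-1, and INSM1 and REST are lowest in KELLY.

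The genes with the most similar pattern to each member were found by Pearson's r of log2(TPM + 1) over the 18 libraries, which mostly follows the 3 lines and is given as a description. They were UAP1L1 for TH (0.993), GLDN for DDC (0.980), PTPN6 for DBH (0.985), FBLL1 for PNMT (0.866), NEDD9 for SLC18A1 (0.996), SLC43A3 for SLC18A2 (0.994), CUX2 for SLC6A2 (0.988), TCEA3 for CYB561 (0.973) and LINC00665 for MAOA (0.965). PTPN6 was also among the nearest 3 of TH, and CYRIA was among the nearest 3 of both DBH and SLC18A1. With each library centred on the mean of its line, which leaves the arms and the spread between libraries, the nearest were RBPMS2 for TH (0.932), ZNF280A for DDC (0.901) and IRAK4 for DBH (0.896). For SLC18A2 it was VEGFD (0.923) and for CYB561 ACTL8 (0.944).

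Among the members themselves, centred values of TH and DBH had r = 0.74 and SLC18A1 and SLC18A2 r = 0.72, while TH and DDC had r = -0.24. The libraries share their line and, in KELLY, the spread of the mitochondrial share, and these values carry no test.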

How the data were processed

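Polyadenylated RNA of 18 xenograft libraries was measured, and groups were taken from the sample titles. Per the labels' protocols, libraries came from a stranded kit and were sequenced in pairs. The submitters' processing notes list STAR, bcl2fastq and FastQC, and name GRCh37 and GRCh38.p12 without saying what each served for. What made the gene tables, with which annotation and strand setting, and whether mouse reads were removed, is not stated. Per the file headers, each library's table holds TPM, FPKM and a coverage signal per gene, as deposited; FPKM served as an alternative and coverage to look at depth. Chromosome 1 ended at 249231242, beyond the 248937099 of RefSeq GRCh38, so coordinates were read as GRCh37. Symbols were matched by identifier for 52181 of 63677 genes. Lines that repeated an identifier were summed.

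The test ran over 18650 genes that reached 1 TPM in 3 or more libraries. On log2(TPM + 1), a pseudocount of 1, limma 3.58.1 (R 4.3.3) was run with 6 group means over 18 libraries and a trend in the prior, and was tested on simulated data. Benjamini-Hochberg adjustment was used, with a threshold of 0.05. DBH to TH, SLC18A1 to SLC18A2 and MAOA to MAOB ratios were compared by two-sided exact permutation. The 95% intervals are limma estimates with their SE and t quantiles at 12 residual plus 4.95 prior degrees of freedom. Replicate numbers follow accession order and pair nothing. Within groups, Pearson's r across genes was 0.969 to 0.990 and no pair was a copy.

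All 9 members were named in every comparison. From each other list, the up to 3 genes with the largest called change in each direction could be named, and further genes were named for their role, after their values were seen. Counts over lists cover all tested genes, and values of some listed genes are not reported here. Members and lists were chosen with earlier results of these data known. Alternatives were a pseudocount of 0.1, no filter, FPKM, median-ratio scaling, TPM without mitochondrial transcripts, a fit of the compared groups alone and leaving out each library.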

Additional observations from a re-analysis of the deposited data

Results flagged for a closer look

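The Hmx1 response of DDC differed between SKNAS and LAN-1 by 1.668 on the log2(TPM + 1) scale (SE 0.37, limma adjusted p = 0.0114), with the 3 Hmx1 libraries above the 3 controls in SKNAS and below them in LAN-1. The response of CYB561 differed between SKNAS and LAN-1 by 1.495 (SE 0.29, limma adjusted p = 0.00419), with the 3 LAN-1 Hmx1 libraries below the 3 controls and overlapping arms in SKNAS. The response of TH differed between SKNAS and KELLY by -2.043 (SE 0.32, limma adjusted p = 0.000696), with no overlap of the arms in SKNAS and overlap in KELLY. The response of CYB561 differed between LAN-1 and KELLY by -1.513 (SE 0.29, limma adjusted p = 0.0469), a call that was lost in 11 of 18 alternatives.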

How the results depend on the processing

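Of 1134 member results under alternatives, 1097 kept their side of the threshold, 20 lost and 17 gained a call, and none reversed a called direction. Among the 1097 were 733 not called either way, of which 55 changed sign. Called members in SKNAS went from 2 to 1 without the filter on low values and with only the compared groups fitted. They went to 3 with FPKM, with median-ratio scaling and with mitochondrial transcripts left out, where DBH was gained. With a pseudocount of 0.1 they were also 3, with SLC18A1 gained. With a library left out they were 1 to 3. Between SKNAS and KELLY responses the member count went from 1 to 2 with FPKM and with median-ratio scaling (1 to 2 with a library left out), and between LAN-1 and KELLY from 1 to 0 without the filter and with the compared groups alone (0 to 3, the 3 without KELLY control library 2).

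Over all genes, LAN-1 calls went from 84 to 127 without the filter, 137 with FPKM, 169 with median-ratio scaling and 27 with the compared groups alone (53 to 99 with a library left out). KELLY calls went from 17 to 49, to 28 with median-ratio scaling and to 0 with the compared groups alone (15 to 49, the 49 without KELLY control library 2). The differences of responses went from 931 to 1522 with the compared groups alone for SKNAS and LAN-1, from 904 to 1367 with median-ratio scaling for SKNAS and KELLY (689 to 1357), and from 39 to 64 with median-ratio scaling and 8 with the compared groups alone for LAN-1 and KELLY (17 to 81). The causes were not tested. No paired analysis was possible because replicate numbers follow accession order and titles carry only library numbers. TPM keeps no depth, so the precision of low values such as TH in SKNAS, and of SLC18A2 and PNMT, is unknown.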
